A study of Mus musculus with 23 samples.

Results

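Cardiac macrophages from mice with a myeloid deletion of Smad7 were compared between 7 and 3 days after coronary ligation. The day 7 group held 4 libraries (replicates 1, 3, 4 and 5) and the day 3 group 5 libraries (replicates 1 to 5), 9 of the 23 libraries of the series. All 9 came from C57BL/6 mice called MyS7KO, in which both Smad7 alleles carried loxP sites and Cre recombinase was driven by the LyzM promoter, the promoter of the lysozyme gene Lyz2. That promoter is active in macrophages, monocytes and neutrophils, so the deletion was not limited to macrophages. The left anterior descending artery was tied for good, without reperfusion. Cells were freed of Ly6G-bearing neutrophils and then selected for CD11b, an integrin of myeloid cells, by magnetic sorting, and their poly(A) RNA was sequenced. The S7fl/fl littermates, with the same loxP sites and no Cre, gave 5 libraries at day 3 and 3 at day 7, which served to test whether the change over time differed by genotype. A further 3 MyS7KO libraries from hearts without infarction (baseline) are given as a reference level.

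The comparison covered all expressed genes of chromosomes 1 to 19. The files listed counts for 54532 genes, of which 50225 lay on these chromosomes, and 16001 of the latter had enough counts to be tested. The labels do not state the age of the mice, which part of Smad7 is removed, or whether each library came from its own heart. The p-values therefore measure the spread between these samples, which may in part be technical.

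Smad7 is an inhibitory Smad. It binds the activated type I receptor of the TGF-beta family, keeps effector Smads from being phosphorylated there and brings in Smurf ubiquitin ligases, and TGF-beta itself induces it as a feedback brake. In an infarct, monocytes that arrive in the first days give rise to inflammatory macrophages that clear dead tissue, and the macrophages of the following days express growth factors and take up apoptotic cells while fibroblasts build the scar.

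The MyS7KO libraries held 16982136 to 23884938 counts at day 3, 16639456 to 20160503 at day 7 and 16382079 to 18315308 at baseline. Levels are given in CPM, the counts of a gene scaled to a common library total. Mitochondrial genes took 0.94 to 1.70% of counts at day 3 and 1.17 to 1.57% at day 7. Principal component 1 of the 9 libraries (54.1% of the variance) placed day 3 at -26.8 to -14.5 and day 7 at 13.1 to 41.7. Component 2 (16.3%) set day 7 replicate 3 apart, at -37.1 against -4.73 to 20.1 in the other day 7 libraries. All 4 day 7 libraries carried Xist, the RNA of female cells, whereas day 3 held 3 libraries with Xist and 2 with Y-linked RNA. Day 3 replicates 2 and 3 held over 2% of the RNA signal of the other sex. Adgre1, a surface antigen that marks macrophages, stood at 618 to 827 CPM at day 3 and 924 to 1362 CPM at day 7. Cd68, another macrophage marker, was lower at day 7, at 744 to 951 CPM against 1026 to 1211 CPM at day 3. Ly6g, which marks neutrophils and encodes the antigen used to remove them, had 0 counts in all 9 libraries. Other neutrophil markers did have counts, with sums of 128 to 217 CPM at day 3 and 174 to 339 CPM at day 7. Sex and time are thus partly tied together, and the genes of the X and Y chromosomes were left out.

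Smad7 itself was the first check of the labels. It stood at 19.9, 10.5, 17.5, 12 and 12.9 CPM at day 3 and at 25.2, 16, 33.4 and 19 CPM at day 7, with 45.6, 48.7 and 19.7 CPM at baseline. The S7fl/fl libraries ranged from 30.4 to 42.0 CPM at day 3, from 57.4 to 70.2 CPM at day 7 and from 53.1 to 61.2 CPM at baseline. At days 3 and 7 every MyS7KO library thus lay below every S7fl/fl library of its day, yet the RNA was not absent, and a count over the whole gene does not show which exons the reads came from. Within MyS7KO Smad7 was higher at day 7 by 0.68 ± 0.238 log2 units (SE, edgeR adjusted p = 0.0274), with overlapping groups. That call ended without day 7 replicate 4 (edgeR adjusted p = 0.14), without day 7 replicate 1 (0.0676), without day 3 replicate 2, 4 or 5 (0.07, 0.0627 and 0.0583), with mixed-sex libraries dropped (0.0977) and with no filter on low counts (0.0756).

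Lyz2, the gene whose promoter drives Cre, stood at 3207, 3088, 2815, 3226 and 3295 CPM at day 3 and at 4033, 4644, 3828 and 3848 CPM at day 7. The groups did not overlap, and Lyz2 rose by 0.39 ± 0.117 log2 units (edgeR adjusted p = 0.0111). The call ended with only the MyS7KO libraries that carried Xist (edgeR adjusted p = 0.0668) and without those of mixed sex (0.0975). In S7fl/fl, Lyz2 ranged from 5261 to 6547 CPM at day 3 and from 6547 to 9530 CPM at day 7. Every MyS7KO library thus lay below every S7fl/fl library of its day.

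Between day 3 and day 7, 6343 of the 16001 genes (39.6%) changed at an edgeR adjusted p under 0.05. Of these 3288 (20.5%) were higher at day 7 and 3055 (19.1%) lower. The larger changes lay mostly on one side: of 1686 called genes with at least 2-fold change (10.5%), 1322 were higher (8.26%) and 364 lower (2.27%). The median log2 change over all tested genes was 0.08, with quartiles at -0.30 and 0.52. In 4714 called genes the 4 libraries of day 7 did not overlap the 5 of day 3, and 31.1% of all tested genes were separated in this way. Which direction held more genes depended on the setting. It turned to 2456 higher and 2749 lower without the mixed-sex libraries, to 2692 and 2719 with only the libraries that carry Xist, to 2912 and 2938 with only the groups compared, and to 3033 and 3216 on log2(FPKM + 1), 2578 and 2825 on the same without a filter, and 3127 and 3215 on log2(FPKM + 0.1). These shares are the background against which each gene group below is read.

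**Figure D1:**
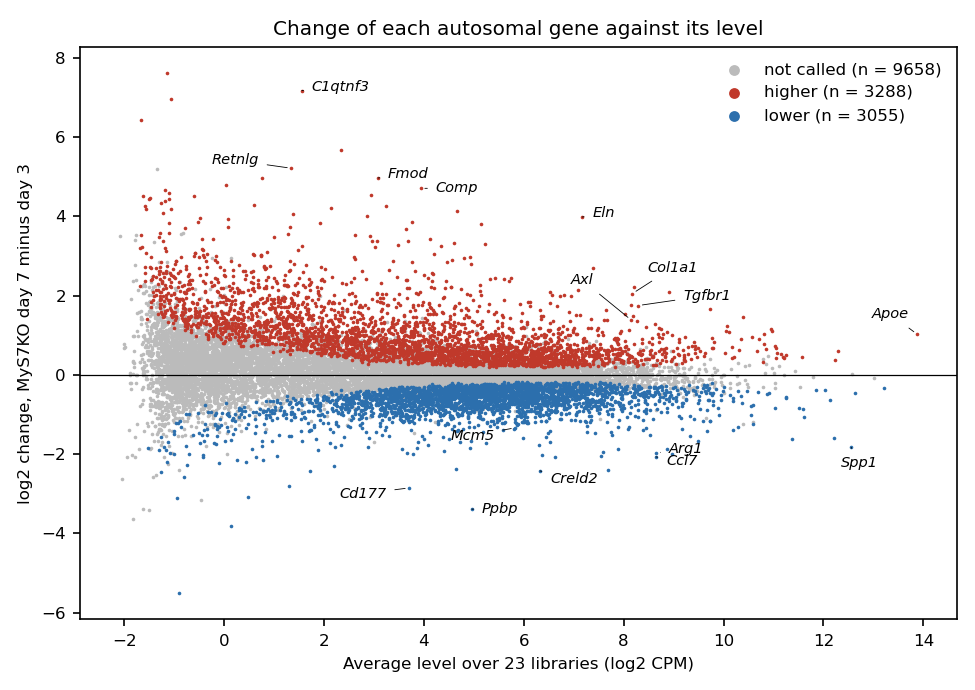
Log2 change from day 3 to day 7 in MyS7KO macrophages (vertical axis) against average log2 CPM (horizontal axis) for the 16001 autosomal genes tested, with called genes coloured. Labelled matrix genes such as Fmod (4.97) and Eln (3.98) lie high above the line of no change, and Ppbp (-3.39), Cd177 (-2.85) and Creld2 (-2.42) lie far below it.

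The largest increases were matrix and connective tissue genes. Eln, which encodes elastin (chr5:134702593-134747323, minus strand, mm10), stood at 25.3, 25.5, 33.4, 23.5 and 24.5 CPM at day 3. At day 7 it stood at 756, 295, 391 and 228 CPM, a log2 change of 3.98 ± 0.396 (edgeR adjusted p = 5.05e-07). No day 7 library came near the day 3 range. Further matrix genes among the 12 largest increases were Fmod (fibromodulin, log2 change 4.97), Comp (cartilage oligomeric matrix protein, 4.71), Itgbl1 (4.53), Col11a1 (4.21), Mfap4 (4.13), Cemip (a hyaluronan-degrading protein, 4.06) and Abi3bp (4.00), and Sfrp2, a secreted Wnt modulator, changed by 4.25. For 3 other genes of that set a day 3 library held 3 counts or fewer, so levels are given. C1qtnf3 rose from at most 0.149 CPM to 2.17 to 17.9 CPM, and Col8a2 from at most 0.561 CPM to 9.97 to 27.8 CPM. Retnlg, a gene of neutrophils, rose from at most 0.240 CPM to 2.13, 9.58, 1.40 and 0.906 CPM, with day 7 replicate 3 far above the others.

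The most precisely measured increases were of another kind. Stk38l, a kinase of the Hippo-related NDR family, stood at 47.9, 47.6, 45.5, 44.6 and 44.8 CPM at day 3 and at 118, 108, 107 and 129 CPM at day 7 (log2 change 1.32 ± 0.0666, edgeR adjusted p = 8.31e-12). Cyp27a1, the mitochondrial sterol 27-hydroxylase, stood at 21.8, 26.1, 22.1, 23.8 and 26.4 CPM at day 3 and at 79.2, 79.4, 83.2 and 79.8 CPM at day 7. In both genes the libraries of a day lay close together and the days far apart. Zmynd15 (log2 change 1.82), Fbxl20 (1.36), Rasgef1b (1.36) and Tgfbr1 (1.75) completed the 6 increases with the lowest p.

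Decreases were led by genes of secreted proteins. Ppbp, a chemokine stored in platelets, stood at 45.1, 36.4, 44.9, 33.2 and 30.3 CPM at day 3 and at 1.46, 4.41, 5.18 and 3.52 CPM at day 7, close to its baseline of 5.45 to 8.67 CPM. It fell by 3.39 ± 0.502 log2 units (edgeR adjusted p = 3.23e-05). Cd177, a neutrophil and monocyte surface protein that binds PECAM1, changed by -2.85, the collagenase Mmp8 by -2.37, coagulation factor F10 by -2.02 and the glycerolipid acyltransferase Gpat3 by -1.998. Dmkn changed by -2.42. The other members of that set were the chemokines Cxcl3, Ccl7 and Pf4, described below, and Creld2, Sdf2l1 and Manf, proteins of the endoplasmic reticulum.

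Creld2 stood at 122, 85.7, 235, 200 and 173 CPM at day 3 and at 22.7, 35.2, 33.2 and 30.6 CPM at day 7, the latter near its baseline of 26.7 to 33.3 CPM. Its log2 change was -2.42 ± 0.345 (edgeR adjusted p = 2.13e-05), beside -2.06 for Sdf2l1 and -2.04 for Manf. The decreases with the lowest p were those of Rpn1, an oligosaccharyltransferase subunit (-1.51 ± 0.101, edgeR adjusted p = 6.18e-10), Srm, which makes spermidine (-1.62), Gcsh of the glycine cleavage system (-0.95), the chaperonin subunit Cct6a (-1.14), Mrps28 of the mitochondrial ribosome (-1.76) and Cd177.

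**Figure D2:**
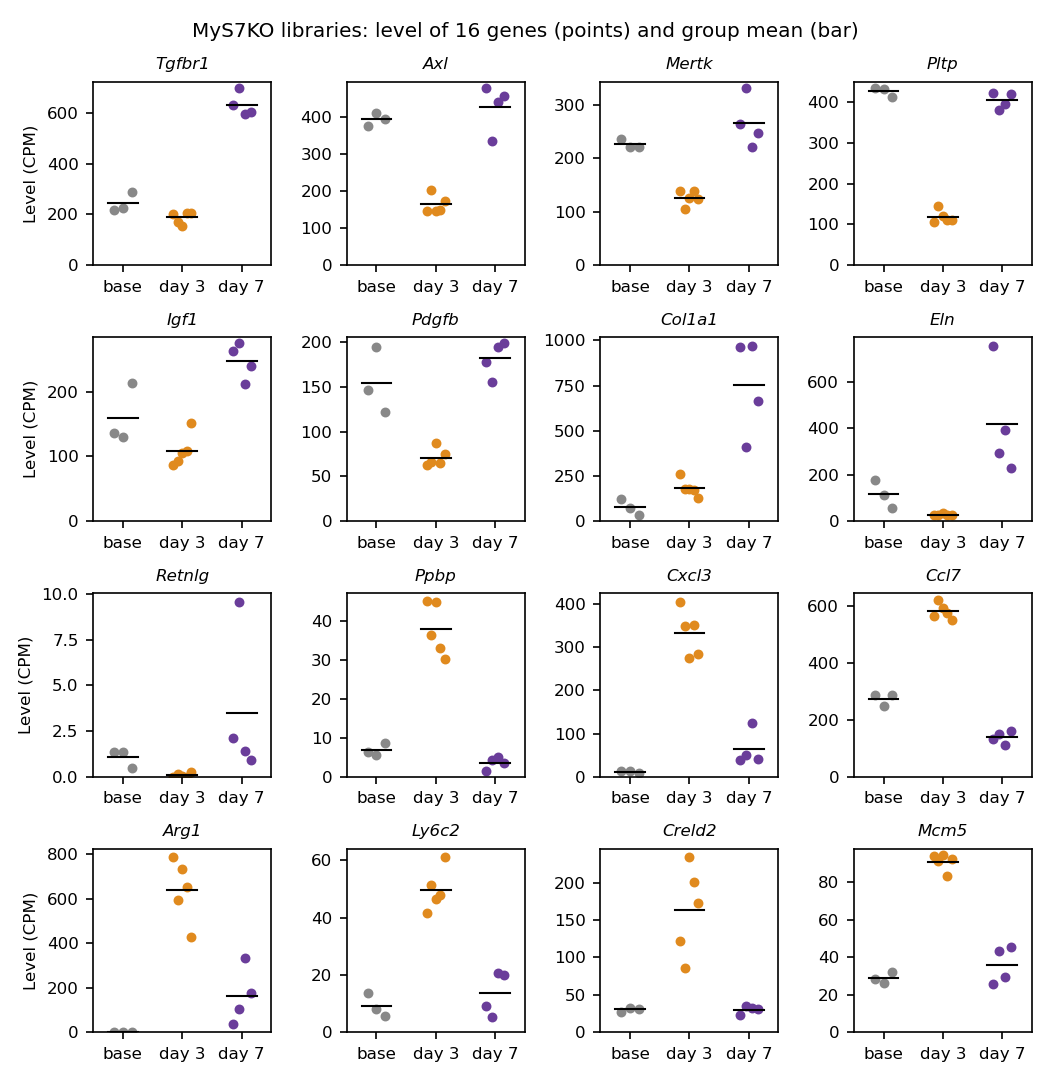
CPM of 16 genes in each MyS7KO library at baseline, day 3 and day 7, each panel on a linear axis from 0, with points for libraries and a bar for the mean. Tgfbr1, Axl, Mertk, Pltp, Igf1, Pdgfb, Col1a1, Eln and Retnlg sit higher at day 7 than at day 3, and Ppbp, Cxcl3, Ccl7, Arg1, Ly6c2, Creld2 and Mcm5 lower.

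Many TGF-beta pathway genes rose, the type I receptor among them. Of 45 tested ligands, latency proteins, receptors and Smads of the TGF-beta and BMP families, 26 rose and none fell at an edgeR adjusted p under 0.05, with a median log2 change of 0.53. The type I receptor Tgfbr1 (chr4:47353222-47414931, plus strand, mm10) stood at 202, 171, 156, 206 and 204 CPM at day 3 and at 631, 696, 596 and 605 CPM at day 7. It rose by 1.75 ± 0.115 log2 units (edgeR adjusted p = 6.07e-10), to levels above its baseline of 219 to 288 CPM. The type II receptor Tgfbr2, which phosphorylates it, rose less, from 220, 203, 179, 218 and 198 CPM to 309, 369, 284 and 280 CPM (0.61 ± 0.0944, edgeR adjusted p = 2.27e-05). The groups did not overlap for either receptor. BMP and activin receptors Acvr1, Acvr2a, Bmpr1a and Bmpr2 also passed as higher. Without day 3 replicate 2, 1 member passed as lower.

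Ligands and latency proteins did not all move. Tgfb1, the main ligand of macrophages, stood at 325, 437, 344, 357 and 330 CPM at day 3 and at 333, 411, 343 and 331 CPM at day 7, with a log2 change of -0.02 ± 0.130 (edgeR adjusted p = 0.932). Tgfb3 rose by 1.19 ± 0.239 (edgeR adjusted p = 0.000513), with day 7 replicate 3 at 23.8 CPM, within the day 3 range of 16.4 to 23.9 CPM, and 43.4 to 55.7 CPM in the other 3. The latent TGF-beta binding proteins hold the ligand in the matrix. Ltbp2 rose from 20.6, 7.68, 10.2, 8.28 and 6.29 CPM to 128, 47.7, 91.2 and 61.2 CPM (2.95 ± 0.481, edgeR adjusted p = 8.7e-05), and Ltbp3 from 30.5 to 44.2 CPM to 70.1 to 110 CPM (log2 change 1.22). Itgb8, a subunit of an integrin that releases active TGF-beta, was low throughout and rose by 1.81, from 0.420 to 1.09 CPM to 1.53 to 3.81 CPM. Fstl1, a secreted follistatin-like protein that fibroblasts also make, rose by 1.98. Over the 4 day 7 libraries Ltbp2 ran in the same order as the summed fibroblast markers described below (5744, 2270, 4764 and 3348 CPM). Most of that sum was collagen and other matrix RNA, and the part of fibroblast RNA in the rise of Ltbp2 was not tested.

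The effector Smads moved little, and the intracellular brakes Skil and Ski moved more. The effector Smads Smad2 (log2 change -0.04, edgeR adjusted p = 0.708) and Smad3 (0.13, edgeR adjusted p = 0.582) did not pass. The common partner Smad4 rose by 0.23 (edgeR adjusted p = 0.0157), a call that ended without the libraries of mixed sex (edgeR adjusted p = 0.0894) and with only the Xist libraries (0.0969). Smad6, the inhibitory Smad of the BMP branch, stood just inside the threshold (0.64 ± 0.253, edgeR adjusted p = 0.0479) and lost its call under 18 alternative settings, RLE scaling (0.0516) and the omission of any single library but day 7 replicate 5 included. The nuclear repressors Skil and Ski, induced by and restraining the pathway, rose by 0.82 and 0.66. Skil stood at 529, 504, 475, 575 and 546 CPM at day 3 and at 934, 995, 860 and 920 CPM at day 7, without overlap.

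Response genes moved in both directions. Of 22 tested TGF-beta and BMP response genes 13 rose and 3 fell, with a median log2 change of 0.58. Ldlrad4, an inhibitor of Smad2 and Smad3 phosphorylation, rose from 9.09, 6.57, 6.38, 7.60 and 7.01 CPM to 28.1, 25.7, 17.8 and 18.9 CPM (1.63 ± 0.166, edgeR adjusted p = 1.46e-07). Ctgf, a matricellular protein, rose by 2.44 ± 0.448 (edgeR adjusted p = 0.000266), from 10.5 to 29.1 CPM to 48.7 to 127 CPM. The fractalkine receptor Cx3cr1 rose by 0.63 (edgeR adjusted p = 0.00768), with overlapping groups, and did not pass with only the Xist libraries (0.0699). The 3 that fell were Thbs1, Tgfbi and Fn1, which encode secreted adhesive proteins. Thbs1, thrombospondin-1, stood at 9089, 7171, 5834, 8509 and 5821 CPM at day 3 and at 1804, 2603, 2500 and 2692 CPM at day 7, and fell by 1.602 ± 0.218 log2 units (edgeR adjusted p = 5.71e-06).

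Most genes of collagens and other matrix proteins rose, and most fibroblast markers did too. Of 43 tested matrix genes 25 rose and 4 fell, with a median log2 change of 1.09. Col1a1, a chain of collagen I, stood at 259, 176, 175, 170 and 127 CPM at day 3 and at 963, 410, 970 and 665 CPM at day 7 (2.05 ± 0.407, edgeR adjusted p = 0.000544). Col3a1 rose from 498, 256, 268, 239 and 207 CPM to 1948, 638, 1421 and 966 CPM (2.08 ± 0.416, edgeR adjusted p = 0.000586). In each gene the lowest day 7 library was replicate 3, and the highest day 3 library replicate 1. Postn, periostin, rose by 2.71, Col14a1 by 1.59 and the collagen crosslinking enzyme Lox by 2.43.

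The 4 matrix genes that fell were Spp1, Thbs1, Fn1 and Ecm1. Spp1, osteopontin, which macrophages of healing infarcts secrete, stood at 12523, 10766, 10174, 10642 and 12291 CPM at day 3, at 2163, 3912, 2325 and 4315 CPM at day 7, and at 26.7 to 41.3 CPM at baseline. It fell by 1.83 ± 0.232 log2 units (edgeR adjusted p = 2.5e-06), with no overlap and still far above baseline. Fn1, fibronectin, fell by 0.85 (edgeR adjusted p = 0.0235), a call that ended without day 3 replicate 1 (0.0642), without day 7 replicate 5 (0.0666), with only the Xist libraries (0.0529) and with no low-count filter (0.0614). The count of matrix genes that fell was 2 under each of those settings but the one without day 7 replicate 5. Summed over all 43 genes the level was lower at day 7, 16483 to 21166 CPM against 25162 to 35578 CPM, although most members rose.

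Of 14 tested fibroblast markers 12 rose and none fell (median log2 change 2.19), and their summed level went from 1756, 1247, 1156, 1134 and 1010 CPM at day 3 to 5744, 2270, 4764 and 3348 CPM at day 7. Col1a1, Col1a2, Col3a1, Postn, Dcn and Lum belong to both this list and the matrix list, and made up most of the day 7 sum. No defining marker was at 0. Pdgfra, the receptor that marks fibroblasts and is no matrix gene, rose by 1.26 ± 0.465 (edgeR adjusted p = 0.0374) with overlapping groups, and lost its call without day 3 replicate 2, 3, 4 or 5 or day 7 replicate 1 or 4 (edgeR adjusted p 0.0705 to 0.153). Without the libraries of mixed sex it was 0.166. The part of fibroblast RNA in the rise of the matrix genes was not tested. In sorted bulk cells, fewer cells of a type and less RNA per cell cannot be told apart. Macrophage markers summed to 18621 to 20726 CPM at day 3 and 19710 to 25890 CPM at day 7, but did not move together. Of 13 tested 8 rose and 4 fell. Fcgr1 stood at 287 to 332 CPM at day 3 and 139 to 257 CPM at day 7, and Cd14 at 4085 to 5178 and 2915 to 4035 CPM.

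Other stromal markers moved less. Of 13 endothelial markers none passed, with summed levels of 558 to 1022 CPM at day 3 and 764, 248, 1606 and 764 CPM at day 7. Mural markers (pericytes and smooth muscle) had 3 of 11 higher (27.3%, against 20.5% of all genes tested). Their sums went from 217 to 388 CPM at day 3 to 389, 94.0, 697 and 357 CPM at day 7. For both lists day 7 replicate 3 was the lowest and replicate 4 the highest. Without replicate 3 the mural count was 5 and the endothelial count 1. Without day 3 replicate 3 or 5, without day 7 replicate 1 or 4, without the libraries of mixed sex or with no low-count filter the mural count was 1. Rgs5, a pericyte gene, stood at 132, 14.6, 264 and 133 CPM at day 7 against 53.8 to 98.3 CPM at day 3, and passed only without replicate 3 (1.23, edgeR adjusted p = 0.00701, against 0.86 and 0.172 with it).

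**Figure D3:**
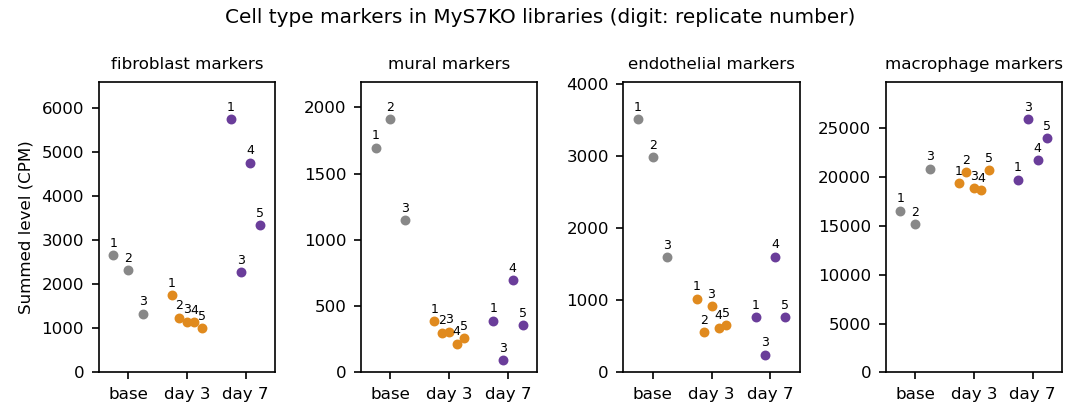
Summed CPM of fibroblast, mural, endothelial and macrophage markers in each MyS7KO library at baseline, day 3 and day 7, on axes from 0, the digit at each point being the replicate number. Fibroblast sums at day 7 (2270 to 5744 CPM) lie above those at day 3 (1010 to 1756 CPM), and replicate 3 is the lowest of day 7 in the first 3 panels.

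Matrix proteases and their inhibitors went both ways. Of 33 tested 12 rose (36.4%) and 6 fell (18.2%), against 20.5% and 19.1% of all genes tested. The gelatinase Mmp2 rose from 13.6, 6.88, 6.32, 6.29 and 7.13 CPM to 121, 31.9, 102 and 62.1 CPM (3.30 ± 0.439, edgeR adjusted p = 1.08e-05), again with replicate 3 lowest at day 7 and replicate 1 highest at day 3. Timp2, which inhibits metalloproteinases, rose by 1.08 and Adamts10 by 1.13. Mmp8 fell from 56.9, 39.9, 31.8, 42.2 and 38.2 CPM to 7.85, 9.65, 6.12 and 8.76 CPM. The sheddase Adam8 fell from 1386, 1104, 1167, 1227 and 1207 CPM to 518, 659, 474 and 533 CPM (-1.16 ± 0.142, edgeR adjusted p = 1.43e-06). Mmp14, a membrane-bound collagenase, did not pass (-0.08, edgeR adjusted p = 0.701).

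Several chemokines that draw monocytes and neutrophils were lower at day 7. Of 24 tested chemokine genes 10 fell and 6 rose (Ccl3, Ccl5, Cx3cl1, Cxcl9, Cxcl13 and Cxcl16), and their summed level went from 8436 to 8977 CPM down to 4661 to 6034 CPM. Ccl7 (chr11:82045712-82047525, plus strand, mm10), a ligand of the monocyte receptor CCR2, stood at 564, 619, 593, 575 and 548 CPM at day 3 and at 132, 149, 112 and 160 CPM at day 7, below its baseline of 247 to 288 CPM. It fell by 2.07 ± 0.232 log2 units (edgeR adjusted p = 8.99e-07). Its neighbour Ccl2, also a CCR2 ligand, fell from 517, 438, 418, 479 and 465 CPM to 155, 169, 130 and 191 CPM (log2 change -1.52). Both days were tightly grouped for both ligands. Ccl6 (-1.66) and Ccl9 (-1.53) fell as well.

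Among the CXC chemokines, Pf4 (platelet factor 4, also made by macrophages) fell from 601, 652, 785, 584 and 607 CPM to 119, 192, 148 and 189 CPM (-1.99 ± 0.183, edgeR adjusted p = 4.94e-08). Platelet markers were low, with sums of 3.64 to 4.88 CPM at day 3 and 6.01 to 9.73 CPM at day 7. Of 5 tested, 3 passed as higher (60%, against 20.5% of all genes tested). That count was 1 without day 3 replicate 4, without day 7 replicate 4 and with no low-count filter. The part of platelet RNA in the changes of Pf4 and Ppbp was not tested. The neutrophil attractant Cxcl3 fell by 2.39 ± 0.440 (edgeR adjusted p = 0.000282), with 124 CPM in day 7 replicate 4 and 39.8 to 49.5 CPM in the other 3. Cxcl2 fell by 0.57 (edgeR adjusted p = 0.0107). Cxcl16, a membrane-bound chemokine and scavenger receptor, rose from 257, 351, 375, 304 and 391.8 CPM to 611, 700, 650 and 775 CPM (1.03 ± 0.129, edgeR adjusted p = 1.98e-06).

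Of 15 tested chemokine and chemoattractant receptors 4 rose (26.7%) and 3 fell (20%), against 20.5% and 19.1% of all genes tested. Ccr2, by which classical monocytes leave the marrow, fell from 291, 362, 310, 313 and 277 CPM to 212, 196, 139 and 199 CPM (-0.74 ± 0.146, edgeR adjusted p = 0.00034). Ccr1 fell by 1.44, with 193 CPM in day 7 replicate 3 and 89.3 to 104 CPM in the other 3. Cxcr4, the receptor of CXCL12, rose from 226, 309, 373, 342 and 322 CPM to 521, 691, 746 and 868 CPM (1.17 ± 0.210, edgeR adjusted p = 0.000146). The chemerin-binding Ccrl2 rose by 0.91. With only the Xist libraries the count of receptors that rose was 2.

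Inflammatory mediators did not move as a block. Of 25 tested 7 fell (28%), 3 rose (12%) and 15 did not pass, against 19.1% lower and 20.5% higher of all genes tested. The median log2 change was -0.13. Their summed level was lower without overlap, 10452 to 13352 CPM at day 3 and 7261 to 10077 CPM at day 7. Ptgs2, the inducible cyclooxygenase, stood at 1870, 1991, 1518, 2045 and 2042 CPM at day 3 and at 613, 597, 801 and 891 CPM at day 7 (-1.38 ± 0.208, edgeR adjusted p = 1.84e-05). Clec4e, a receptor for dead-cell and microbial ligands, fell by 1.36. The cytokine Il1b did not pass (-0.31 ± 0.221, edgeR adjusted p = 0.278), at 1702 to 2456 CPM on day 3 and 1285 to 2188 CPM on day 7. Il12b, a subunit of cytokines that drive T cells, rose from 1.31 to 4.20 CPM to 5.83 to 7.30 CPM (log2 change 1.43). Tnf rose by 0.52 (edgeR adjusted p = 0.0206), a call that ended without day 3 replicate 3 (0.0514), without day 7 replicate 5 (0.063), with only the Xist libraries (0.109) and without those of mixed sex (0.0543).

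Nos2, inducible nitric oxide synthase, rested on 1 library. It stood at 7.57, 1.21, 111 and 11.2 CPM at day 7 and at 4.62 to 13.4 CPM at day 3. Its log2 change of 2.07 (edgeR adjusted p = 0.0378) turned to -0.22 (0.774) without day 7 replicate 4. The call also ended without day 3 replicate 2, 3, 4 or 5 (edgeR adjusted p 0.064 to 0.0802). With no low-count filter, with only the Xist libraries, without the libraries of mixed sex or without day 3 replicate 3, the count of mediators that rose was 1.

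Pattern recognition receptors and brakes on their signalling went both ways. Of 25 tested 8 rose (32%) and 5 fell (20%), against 20.5% and 19.1% of all genes tested. Tlr2, a receptor of bacterial lipoproteins, rose from 747, 775, 681, 762 and 781 CPM to 1184, 1510, 1263 and 1367 CPM (0.83 ± 0.0979, edgeR adjusted p = 9.15e-07). Socs3, a brake on cytokine signalling through STAT3, rose by 0.96 and Tlr9 by 0.83. The count that fell was 2 or 3 without day 3 replicate 2, 4 or 5, without day 7 replicate 1 and when the mixed-sex libraries were dropped.

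Interferon-induced genes were spread widely over the day 7 libraries. Of 39 tested 9 rose (23.1%) and 2 fell (5.13%), against 20.5% and 19.1% of all genes tested. Their summed level was 1884, 1374, 3140 and 3218 CPM at day 7, replicates 4 and 5 lying above the day 3 range of 1919 to 2620 CPM and replicates 1 and 3 below it. Cxcl9, a chemokine induced by interferon gamma, stood at 10.5, 2.49, 57.4 and 35.6 CPM at day 7 and at 3.92 to 7.77 CPM at day 3 (2.40 ± 0.530, edgeR adjusted p = 0.0014). The guanylate-binding protein gene Gbp3 stood at 43.5, 30.7, 68.1 and 70.6 CPM at day 7 and at 24.98 to 27.4 CPM at day 3 (1.00 ± 0.178, edgeR adjusted p = 0.000126), and the transcription factor gene Irf1 rose by 0.92. Gbp2 and Iigp1 passed (edgeR adjusted p = 0.0251 and 0.0146) but not without day 7 replicate 4 (0.206 and 0.117), nor with only the groups compared (0.126 and 0.0898) or on FPKM values (limma adjusted p 0.145 to 0.276 and 0.106 to 0.217). Gbp2 also lost its call without day 3 replicate 4 (edgeR adjusted p = 0.0524) or day 7 replicate 5 (0.0808), with only the Xist libraries (0.0646), with mixed-sex libraries dropped (0.0771) and with no low-count filter (0.0662). The count that rose was 17 without day 7 replicate 3, 14 with limma-voom and 5 on log2(FPKM + 1) without a filter, and the count that fell was 1 to 5 when single libraries were left out.

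Most genes of classical monocytes fell. None of 20 tested classical monocyte genes rose and 16 fell, with a median log2 change of -1.08. Ly6c2, the surface antigen that defines these monocytes, stood at 41.6, 51.4, 46.4, 48.0 and 61.2 CPM at day 3 and at 9.25, 5.43, 20.7 and 19.98 CPM at day 7 (-1.84 ± 0.413, edgeR adjusted p = 0.0016). Plac8 fell from 67.4 to 108 CPM to 11.9 to 42.7 CPM (log2 change -1.599), S100a4 by 1.56 and glutathione reductase Gsr by 1.06. Chil3, a chitinase-like protein, was scattered at day 7, at 318, 70.2, 19.2 and 77.8 CPM against 152 to 332 CPM at day 3, and did not pass (-1.11, edgeR adjusted p = 0.217). Without day 7 replicate 1, the library at 318 CPM, it did (-2.23, edgeR adjusted p = 0.018), as it did with limma-voom (-2.28, 0.0109).

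Resident cardiac macrophage genes had 11 of 23 higher and 2 lower, with a median log2 change of 0.42. Igf1, an insulin-like growth factor of reparative macrophages, stood at 87.3, 93.5, 105, 108 and 153 CPM at day 3 and at 263, 276, 212 and 241 CPM at day 7 (1.18 ± 0.167, edgeR adjusted p = 9.23e-06). Hpgd, which degrades prostaglandins, rose from 12.6 to 15.8 CPM to 30.7 to 50.4 CPM (1.57) and the selenium carrier Selenop from 877 to 1221 CPM to 1917 to 3241 CPM (1.152). Timd4, a receptor for phosphatidylserine, rose from 2.16 to 3.34 CPM to 4.13 to 7.69 CPM and stayed far under its baseline of 80.9 to 108 CPM.

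The same gap to baseline held for Lyve1 and Cd163, the hyaluronan receptor and haemoglobin scavenger of resident cells. Lyve1 stood at 652 to 734 CPM at baseline, 9.23 to 30.7 CPM at day 3 and 21.2 to 54.0 CPM at day 7 (1.14, edgeR adjusted p = 0.0343). Its call ended without day 3 replicate 2, 3, 4 or 5 or day 7 replicate 1 or 3 (edgeR adjusted p 0.0537 to 0.109), as it did when the mixed-sex libraries were dropped (0.106). Cd163 stood at 1172 to 1538 CPM at baseline, 27.8 to 63.8 CPM at day 3 and 50.7 to 119 CPM at day 7 (0.93, edgeR adjusted p = 0.0175, and 0.0669 without day 7 replicate 1). Mrc1, the mannose receptor, did not pass (-0.32, edgeR adjusted p = 0.126). It was at 972 CPM in day 7 replicate 3 and 578 to 588 CPM in the other 3, and without that library it fell by 0.54 (0.00666), and with limma-voom by 0.40 (0.0165). The sorting nexin Snx2 and the scavenger receptor Stab1 were the 2 that fell, and 4 fell without day 7 replicate 3 and with limma-voom.

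S100 proteins, annexins and integrins had 4 of 35 higher and 12 lower. The annexin Anxa2 fell from 1049, 979, 1117, 976 and 1090 CPM to 427, 498, 504 and 512 CPM (-1.10 ± 0.109, edgeR adjusted p = 9.49e-08). Its binding partner S100a10 fell by 0.92 and the galectin Lgals1 by 1.04.

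Several receptors and bridging proteins for apoptotic cells rose. Of 24 tested efferocytosis genes 11 rose and 4 fell, with a median log2 change of 0.37. The receptor tyrosine kinase Axl (chr7:25757273-25788705, minus strand, mm10) stood at 146, 203, 146, 149 and 173 CPM at day 3 and at 479, 335, 439 and 456 CPM at day 7, near its baseline of 375 to 411 CPM. It rose by 1.38 ± 0.112 log2 units (edgeR adjusted p = 9.22e-09). Its relative Mertk rose from 139, 105, 126, 138 and 123 CPM to 263, 332, 220 and 247 CPM (1.07 ± 0.124, edgeR adjusted p = 7.19e-07). Mfge8, which bridges phosphatidylserine to integrins, rose by 1.5. Marco, a scavenger receptor, stood at 5.50, 25.3, 54.2 and 62.8 CPM at day 7 against 2.34 to 7.10 CPM at day 3, so replicate 1 had not left the day 3 range (3.27 ± 0.636, edgeR adjusted p = 0.000465). Msr1, another scavenger receptor, fell by 1.33.

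Complement genes had 10 of 16 higher and 3 lower. C4b, of the classical pathway, rose from 96.9, 119, 85.2, 89.8 and 75.6 CPM to 223, 284, 240 and 299 CPM (1.49 ± 0.200, edgeR adjusted p = 6.4e-06). The anaphylatoxin receptor C5ar2 rose by 0.67, and the integrin subunit Itgam, which encodes the sorted antigen CD11b, fell from 303 to 354 CPM to 124 to 215 CPM (-0.86 ± 0.151, edgeR adjusted p = 9.12e-05). C1qa rose by 0.43 (edgeR adjusted p = 0.0356), a call lost without day 3 replicate 1 or 4 or day 7 replicate 3 or 5 (0.0676 to 0.138).

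Most MHC class II genes rose. Of 19 tested genes of the class II pathway and co-stimulation 12 rose and 2 fell, with a median log2 change of 0.45, and their summed level went from 10669 to 14353 CPM up to 16723 to 20415 CPM. Ciita, the transactivator of class II genes, rose from 9.09, 15.6, 14.9, 14.3 and 12.05 CPM to 37.4, 27.3, 36.7 and 34.5 CPM (1.37 ± 0.177, edgeR adjusted p = 3.32e-06). The class II chain H2-Aa rose by 0.68 and the invariant chain Cd74 by 0.60, the latter with overlapping groups. Icosl, a T cell co-stimulator, rose from 29.9, 32.5, 28.7, 35.6 and 39.7 CPM to 83.0, 72.6, 71.6 and 73.4 CPM (1.18 ± 0.112, edgeR adjusted p = 6.11e-08). With only the Xist libraries 7 members rose, and the count that fell was 1 under that setting and when single libraries such as day 7 replicate 3 were left out. Dendritic cells and B cells also express class II genes. Dendritic cell markers had 1 of 12 higher and 1 lower, with sums of 138 to 191 CPM at day 3 and 114 to 188 CPM at day 7, and B cell markers had 5 of 10 higher, with sums of 47.8 to 80.8 CPM and 145 to 160 CPM. The dendritic count that rose was 0 without day 3 replicate 2 or 4, the B cell count was 2 or 3 without day 3 replicate 5 or day 7 replicate 1 or 4, and the part of these cells in the rise was not tested.

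Of 29 tested growth factors and markers of alternative activation 7 rose (24.1%) and 7 fell (24.1%), shares near those of all genes tested, with a median log2 change of -0.02. The platelet-derived growth factors, which act on fibroblasts and mural cells, rose. Pdgfb stood at 62.4, 65.5, 87.6, 64.9 and 74.6 CPM at day 3 and at 178, 156, 195 and 199 CPM at day 7 (1.36 ± 0.146, edgeR adjusted p = 3.03e-07), Pdgfc rose by 1.24 and Pdgfa by 0.87. Arginase 1, the alternative activation marker Arg1, fell from 786, 596, 734, 655 and 431 CPM to 37.7, 106, 334 and 177 CPM, with 1.64 to 2.82 CPM at baseline (-1.97 ± 0.478, edgeR adjusted p = 0.00299). The 4 day 7 libraries were widely spread yet all below day 3. With no low-count filter the count that fell was 4.

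Arginine and polyamine genes had 11 of 20 lower and 3 higher. Srm stood at 36.7, 37.1, 44.5, 41.2 and 39.5 CPM at day 3 and at 11.5, 11.6, 14.97 and 13.9 CPM at day 7, near its baseline of 8.78 to 9.96 CPM. The mitochondrial arginase Arg2 fell by 1.23 and the proline synthesis enzyme Aldh18a1 by 0.71. Odc1, which makes putrescine, did not pass (-0.89, edgeR adjusted p = 0.142), with day 3 replicate 5 at 92.6 CPM and the other day 3 libraries at 460 to 835 CPM. Without that library it fell by 1.154 (0.0227). The count that rose was 1 without day 3 replicate 4, without day 7 replicate 4, with only the Xist libraries or with no low-count filter.

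Lipid-associated macrophage genes had 5 of 20 higher and 9 lower. Apoe, the apolipoprotein that carries cholesterol out of macrophages, rose from 10275, 13577, 12792, 10577 and 12808 CPM to 20667, 28904, 23267 and 24920 CPM (1.03 ± 0.135, edgeR adjusted p = 3.39e-06). The protease Ctsk rose from 18.7 to 23.7 CPM to 35.7, 42.9, 133 and 58.0 CPM (1.68). The fatty acid binding protein Fabp5 fell from 816 to 1162 CPM to 360 to 575 CPM (-1.09 ± 0.189, edgeR adjusted p = 8.95e-05). Trem2, the lipid receptor that defines this programme, did not pass (0.26 ± 0.143, edgeR adjusted p = 0.153). Gpnmb rose by 0.70 (edgeR adjusted p = 0.0211), a call lost without day 3 replicate 3 (0.0526), day 7 replicate 1 (0.052) or 3 (0.119), with only the Xist libraries (0.1), with mixed-sex libraries dropped (0.156), with no low-count filter (0.0696), on log2(FPKM + 1) without a filter (0.0735) and with limma-voom (0.167).

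Cholesterol genes had 6 of 28 higher (21.4%) and 9 lower (32.1%), against 20.5% and 19.1% of all genes tested. The phospholipid transfer protein Pltp, an LXR target, rose from 105, 144, 121, 110 and 112 CPM to 423, 382, 397 and 421 CPM (1.77 ± 0.152, edgeR adjusted p = 1.84e-08), back to a baseline of 412 to 435 CPM. Mylip, an LXR-induced ubiquitin ligase that degrades the LDL receptor, rose from 52.9, 57.0, 65.7, 64.3 and 60.2 CPM to 126, 148, 141 and 132 CPM (1.19 ± 0.0988, edgeR adjusted p = 1.35e-08). Nr1h3, the gene of LXR alpha itself, fell from 27.0 to 36.4 CPM to 15.2 to 21.8 CPM (-0.88 ± 0.148, edgeR adjusted p = 5.75e-05).

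Lysosomal genes had 10 of 39 higher (25.6%) and 12 lower (30.8%), against 20.5% and 19.1% of all genes tested. Cathepsin F, Ctsf, rose from 5.12, 4.75, 6.91, 3.86 and 5.39 CPM to 21.9, 24.3, 26.8 and 24.4 CPM (2.23 ± 0.198, edgeR adjusted p = 3.74e-08). The proton pump subunit Atp6v1h fell by 0.72. Ctsb fell by 0.34 (edgeR adjusted p = 0.0418), and its call ended when any single library but day 7 replicate 3 was left out (0.0536 to 0.164). Ctsd did not pass (-0.31, edgeR adjusted p = 0.09) except with limma-voom (-0.40, limma adjusted p = 0.0176). With only the Xist libraries 6 members rose.

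Haem and iron genes had 6 of 24 in each direction (25%), near the 20.5% higher and 19.1% lower of all genes tested. Hmox1, haem oxygenase 1, fell from 3760, 3505, 3775, 3333 and 3860 CPM to 971, 2062, 907 and 858 CPM (-1.604 ± 0.239, edgeR adjusted p = 1.79e-05), with day 7 replicate 3 far above the other 3. The haem transporter Slc48a1 fell by 0.79, and Nfe2l2, the transcription factor of the oxidant response, rose by 0.60. Without day 7 replicate 1 or in a fit of only the groups compared 3 members rose, and with limma-voom 12 fell.

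Genes of energy metabolism mostly fell. Of 32 tested glycolysis and hypoxia genes 21 fell and 1 rose, with a median log2 change of -0.61, and their summed level went from 12102 to 13657 CPM down to 5880 to 7571 CPM, above a baseline of 3727 to 3929 CPM. Pyruvate kinase, Pkm, stood at 2649, 2458, 2438, 2295 and 2347 CPM at day 3 and at 812, 1180, 1075 and 1085 CPM at day 7 (-1.23 ± 0.121, edgeR adjusted p = 9.15e-08). Enolase Eno1 (-1.17), hexokinase Hk3 (-1.18), Gapdh (-1.001) and lactate dehydrogenase Ldha (-1.04) fell alike. The cytokine Mif fell by 1.41 and the hypoxia factor Hif1a by 0.76. The gene that rose was Pfkfb3, which makes an activator of phosphofructokinase, and with limma-voom 2 rose.

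Of 41 tested respiratory chain and citrate cycle genes 38 fell and 1 rose, with a median log2 change of -0.59. Cytochrome c, Cycs, stood at 105, 92.3, 89.6, 89.4 and 101 CPM at day 3 and at 34.3, 41.0, 49.7 and 47.7 CPM at day 7, against 36.8 to 38.2 CPM at baseline (-1.14 ± 0.0931, edgeR adjusted p = 1e-08). Malate dehydrogenase Mdh2 (-0.99), cytochrome c1 Cyc1 (-0.81) and the ATP synthase subunit Atp5b (-0.72) fell too. Acod1, which makes itaconate in activated macrophages, did not pass (-0.85, edgeR adjusted p = 0.123).

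Most cell cycle genes fell. None of 47 tested rose and 36 fell, with a median log2 change of -0.83 and summed levels of 3063 to 3438 CPM at day 3 and 1968 to 2494 CPM at day 7. Mcm5, a subunit of the replicative helicase, stood at 93.8, 91.2, 94.3, 83.0 and 92.1 CPM at day 3 and at 26.0, 43.4, 29.3 and 45.5 CPM at day 7 (-1.33 ± 0.170, edgeR adjusted p = 2.78e-06). Its partner Mcm2 fell by 1.32, with 37.7 CPM in day 7 replicate 5 and 24.1 to 25.2 CPM in the other 3. Mcm4 fell by 1.09, the sliding clamp Pcna by 0.70 and the topoisomerase Top2a by 0.93. Mki67, the widely used proliferation marker, did not pass (-0.23 ± 0.209, edgeR adjusted p = 0.396), at 151 to 216 CPM on day 3 and 114 to 188 CPM on day 7.

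The promoters of this list were searched as a description of its members. The windows ran from 250 bases before to 50 bases after the start of a gene (RefSeq, GRCm38.p6). The search covered both strands for the cell cycle homology element TTTGAA, known as CHR, for the CCAAT box CCAAT and for the E2F sites TTTCCCGC and TTTGGCGC. CHR and CCAAT elements are bound by the DREAM and NF-Y complexes that time late cell cycle genes, and E2F sites by the factors that time replication genes. A promoter was listed for 36 of the 47 members. CHR lay in 18 of these (50%) and in 14.7% of 11059 tested genes with a listed promoter, CCAAT in 29 (80.6%) and in 42.0%, and E2F in 5 (13.9%) and in 3.2%. Among the 27 members that fell and had a listed promoter, the counts were 11 (40.7%), 21 (77.8%) and 5 (18.5%). The members were picked as cell cycle genes, so these shares describe the list and not its fall at day 7. For comparison, the interferon element GAAANNGAA (ISRE) lay in 21 of 30 interferon list promoters (70.0%) and in 8.9% of tested genes, and the lysosomal CACGTG element in 11 of 30 lysosome list promoters (36.7%) and in 11.2%. These are matches of letters, which do not show binding. To show what such promoters look like, 4 members that fell and that hold both CHR and CCAAT are printed, a choice made on the motif, with both elements in capitals, also where they read on the opposite strand. Mcm2 lies at chr6:88898731-88899030 (minus strand), Cdc45, a helicase cofactor, at chr16:18811923-18812222 (minus), the mitotic kinase Aurka at chr2:172370521-172370820 (minus) and the mitotic kinase Plk1 at chr7:122159185-122159484 (plus).
Mcm2: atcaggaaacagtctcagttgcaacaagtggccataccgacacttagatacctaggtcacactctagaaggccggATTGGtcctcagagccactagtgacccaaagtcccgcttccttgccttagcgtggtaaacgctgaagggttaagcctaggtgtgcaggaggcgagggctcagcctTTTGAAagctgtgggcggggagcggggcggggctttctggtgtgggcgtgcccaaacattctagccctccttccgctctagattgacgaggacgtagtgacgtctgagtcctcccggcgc
Cdc45: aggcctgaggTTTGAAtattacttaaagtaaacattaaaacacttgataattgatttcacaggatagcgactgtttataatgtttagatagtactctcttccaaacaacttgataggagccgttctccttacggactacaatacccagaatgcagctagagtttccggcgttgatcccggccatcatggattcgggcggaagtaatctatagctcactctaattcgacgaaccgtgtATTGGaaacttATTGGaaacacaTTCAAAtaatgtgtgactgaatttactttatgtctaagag
Aurka: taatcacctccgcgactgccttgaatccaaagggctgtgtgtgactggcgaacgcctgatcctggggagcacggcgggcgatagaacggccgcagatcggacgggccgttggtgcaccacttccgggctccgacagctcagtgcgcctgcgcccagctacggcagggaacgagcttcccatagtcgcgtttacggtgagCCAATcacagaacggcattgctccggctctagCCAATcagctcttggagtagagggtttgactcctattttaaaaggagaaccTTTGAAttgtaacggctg
Plk1: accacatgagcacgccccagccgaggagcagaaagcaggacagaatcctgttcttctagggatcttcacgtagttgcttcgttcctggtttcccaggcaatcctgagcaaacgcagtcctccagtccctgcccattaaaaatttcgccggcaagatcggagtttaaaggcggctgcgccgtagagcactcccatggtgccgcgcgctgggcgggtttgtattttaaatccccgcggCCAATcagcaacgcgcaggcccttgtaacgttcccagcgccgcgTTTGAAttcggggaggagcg

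Immediate early genes and several macrophage transcription factors rose. Of 39 tested immediate early and heat shock genes 23 rose and 5 fell, with a median log2 change of 0.54. Atf3 stood at 359, 415, 496, 394 and 438 CPM at day 3 and at 939, 946, 1010 and 1079 CPM at day 7 (1.24 ± 0.104, edgeR adjusted p = 1.44e-08), below its baseline of 2105 to 2609 CPM. Egr1 rose by 1.66, Fos by 1.45, and Fosb and Jun by 1.10 each. These RNAs are also induced by cell isolation, the labels give no handling times, and the part of isolation in this rise was not tested. The mean level of each of these 5 genes was highest at baseline, lower at day 7 and lowest at day 3. Without day 7 replicate 1 the count that fell was 3.

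Of 37 tested macrophage transcription factors 18 rose and 4 fell. Cebpa, which specifies myeloid cells, rose from 251, 308, 285, 259 and 266 CPM to 417, 599, 515 and 518 CPM (0.90 ± 0.116, edgeR adjusted p = 2.45e-06). Klf4, a factor of monocyte differentiation, rose by 0.73. The colony stimulating factor receptor Csf1r, on which macrophage survival depends, rose from 1209, 1408, 1077, 1215 and 1169 CPM to 1910, 2316, 2052 and 2072 CPM (0.78 ± 0.105, edgeR adjusted p = 4.54e-06).

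**Figure D4:**
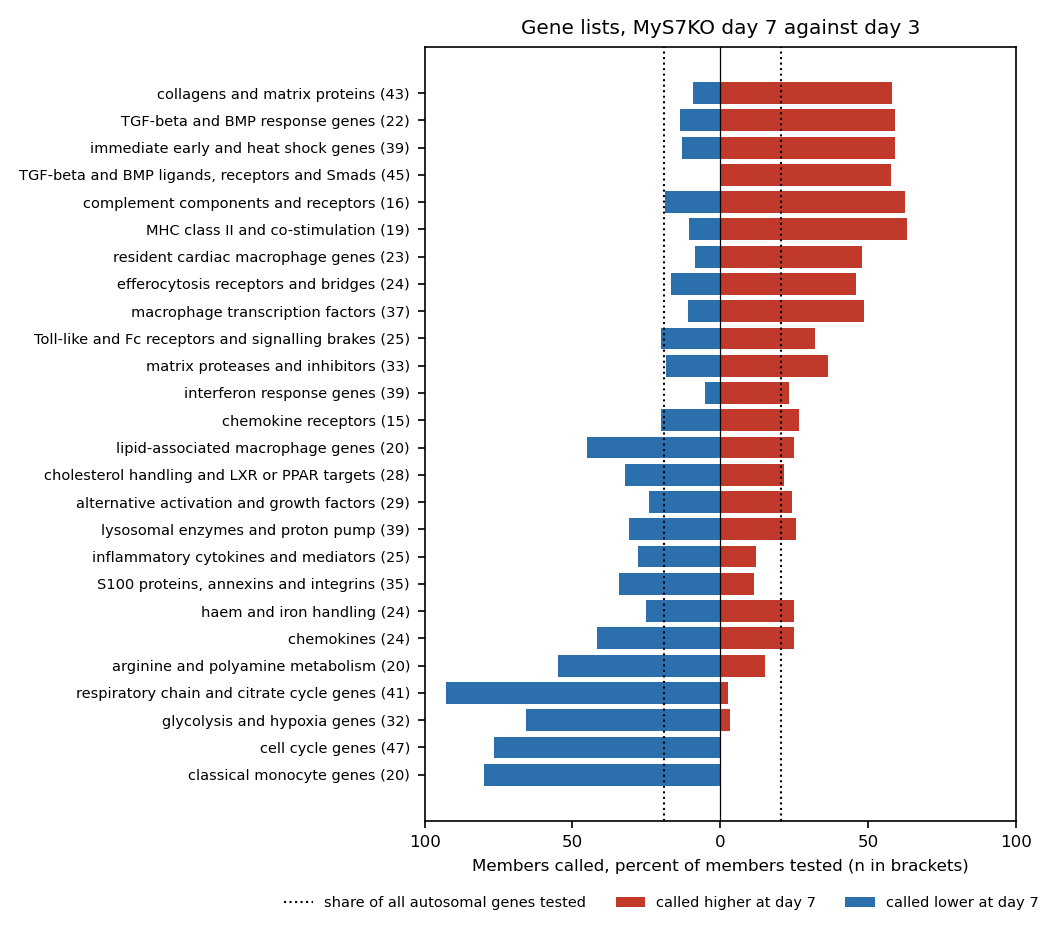
Share of tested members called higher or lower at day 7 against day 3 in MyS7KO macrophages, in percent, for each functional gene list. Among these lists respiratory chain (92.7%), classical monocyte (80%) and cell cycle genes (76.6%) reach farthest on the lower side and MHC class II genes (63.2%) on the higher side, and dotted lines mark the shares of all genes tested (20.5% higher, 19.1% lower).

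The same interval was measured in S7fl/fl macrophages. In S7fl/fl 3478 of the 16001 genes were called (21.7%), 1853 higher (11.6%) and 1625 lower (10.2%), with 5 against 3 libraries where MyS7KO had 5 against 4. Called in both genotypes were 2878 genes, which is 45.4% of the MyS7KO calls and 82.7% of the S7fl/fl calls, and 2877 of these had the same direction. The 2 comparisons share no library. Of the 6343 genes called in MyS7KO, 6010 had the same sign in S7fl/fl. The median log2 change of genes called higher in MyS7KO was 0.83 there and 0.53 in S7fl/fl, and of those called lower -0.57 and -0.33. The genes were chosen on their change in MyS7KO, so the smaller size in the other genotype is a description.

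The difference of the 2 changes was tested gene by gene. It passed for 0 genes (0%) with edgeR, whose lowest adjusted p was 0.416, and 1667 genes had an unadjusted p under 0.05 where 800 would be expected with no difference. With limma-voom it also passed for 0, and with DESeq2 for 1. That gene was Ighv1-18, an immunoglobulin heavy chain segment of B cells, at 0 counts in all 4 MyS7KO day 7 libraries, where 3 counts would equal 0.151 to 0.192 CPM, and at 0.119 to 0.547 CPM at day 3. In sex the day 7 groups were opposite, all MyS7KO libraries with Xist and all S7fl/fl libraries with Y-linked RNA, so sex and genotype cannot be told apart in this difference.

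The lowest p-values of the difference, none of which passed in edgeR, belonged to Vrk1, a chromatin kinase (log2 change -0.56 in MyS7KO and 0.01 in S7fl/fl), Prkg1, a kinase of smooth muscle (1.84 and -0.69), the mitochondrial protease Htra2 (-0.31 and 0.23), Cks2, a cofactor of cyclin-dependent kinases (-0.09 and 0.63), and Ighv1-18. Changes described above lay side by side with those of S7fl/fl as follows. Tgfbr1 changed by 1.75 in MyS7KO and 1.52 in S7fl/fl, Axl by 1.38 and 1.43, Col1a1 by 2.05 and 1.69, and Spp1 by -1.83 and -1.21. Ccl7 changed by -2.07 and -0.89, Ppbp by -3.39 and -1.52 and Hmox1 by -1.604 and -0.65. Of the cell cycle list 36 members were called lower in MyS7KO and 12 in S7fl/fl, and of the respiratory chain list 38 and 20. Other lists lay closer, with 21 and 19 glycolysis and hypoxia genes lower and 16 and 12 classical monocyte genes lower. Of the MHC class II list 12 and 14 members were higher. Of all genes tested 19.1% were called lower in MyS7KO and 10.2% in S7fl/fl, which had fewer day 7 libraries. No member of any list passed the test of the difference in edgeR.

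**Figure D5:**
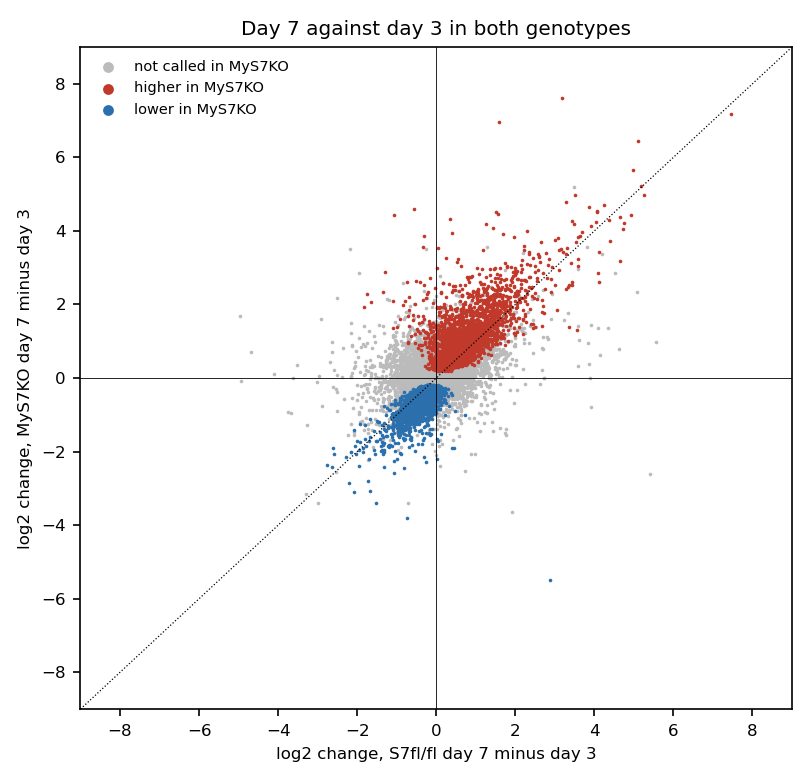
Log2 change from day 3 to day 7 in MyS7KO (vertical axis) against that in S7fl/fl (horizontal axis) for the 16001 genes tested, coloured by the call in MyS7KO, with a dotted line at equal change. Of the 6343 coloured genes 6010 lie in the quadrants of equal sign.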

How the data were processed

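Poly(A) RNA of sorted cardiac cells was sequenced as paired reads, per the labels' protocols, which do not state strandedness. The authors deposited raw read counts per gene for all 23 libraries and an FPKM table. Per the submitters' processing notes the tools included HTSeq 0.6.1, TopHat2 2.0.9 and Cufflinks 2.1.1, with mm10 and GRCm38.p6 as builds. Each column was matched to a sample by its title, and 0 columns of other samples were found.

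The deposited counts were fitted in R 4.3.3 with edgeR 4.0.16 (TMM scaling, filterByExpr, robust quasi-likelihood test, 1 coefficient for each of 6 groups over all 23 libraries). P-values were adjusted over 16545 tested genes by the Benjamini-Hochberg method, and the 16001 autosomal genes are reported. A call is an edgeR adjusted p under 0.05. Adjusted p-values given with a setting or an omitted library come from the same test refitted. Fold changes of genes with 3 counts or fewer in a library of the lower group are not given.

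Genes to be named had to be called, to average 1 or more in log2 CPM, to have groups that did not overlap and to carry no predicted-gene name: of these, the 12 largest changes and the 6 lowest p in each direction were taken. To them came the 3 called members with the lowest p and the 5 most abundant members of each gene list, Smad7 and Lyz2, and the 5 lowest p of the difference between genotypes. Other genes were chosen after their values were seen. The members and lists were chosen with earlier results of these data known. The fit was repeated with all genes kept, with RLE scaling, with only the groups compared, a replicate block, sex as a covariate, only MyS7KO libraries with Xist, no libraries of mixed sex, omission of each library, DESeq2 1.42.0, and limma 3.58.1, the latter with voom or with its trend option on FPKM values after adding 1 or 0.1 and taking log2. The S7fl/fl counts under them and the lists of protein folding, ribosome and proteasome genes were added after seeing the data. Promoters come from RefSeq.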

Additional observations from a re-analysis of the deposited data

Results flagged for a closer look

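For each named gene the highest or lowest library of a MyS7KO group was compared with the rest. By Dixon's criterion 37 of 364 groups held a library far from the others. The criterion flags about 1 in 20 where values are independent and normal. The named genes share libraries and some were chosen after their values were seen, so the 37 cannot be judged against that rate. Levels are in CPM, and no explanation was tested.

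Day 3 replicate 1 stood above the other 4 libraries of its group for matrix and fibroblast genes: Itgbl1 (1.74, others at most 0.754), Abi3bp (1.94, 0.843), Ltbp2 (20.6, 10.2), Col3a1 (498, 268), Postn (119.9, 70.2), Mmp2 (13.6, 7.13), Fstl1 (111, 63.1), Lox (31.6, 18.2) and Pdgfra (10.9, 4.17). It was lowest for Prkg1 (0.298, others at least 0.539).

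Day 7 replicate 3 stood above the other 3 libraries for Retnlg (9.58, others at most 2.13), Ccr1 (193, 104), Hmox1 (2062, 971), Mrc1 (972, 588), Selenop (3241, 2092), Tgfb1 (411, 343) and Hspa5 (3039, 1897). This is the library that component 2 set apart.

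Day 3 replicate 2 was highest for Comp (2.88), Cxcl9 (7.77) and Tgfb1 (437). Day 3 replicate 3 was highest for Eln (33.4), Fosb (1408) and Egr1 (257) and lowest for Cxcl2 (2434). Day 3 replicate 4 was highest for Marco (7.10) and lowest for Mcm5 (83.0), and day 3 replicate 5 was highest for Atp6v1h (159) and Ctsb (13631).

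Day 7 replicate 1 was highest for Cemip (12.8), Icosl (83.0) and Odc1 (298) and lowest for Anxa2 (427). Day 7 replicate 4 was highest for Cyp27a1 (83.2), Cxcl3 (124) and Nos2 (111, others at most 11.2). Day 7 replicate 5 was highest for Mcm2 (37.7) and lowest for Fn1 (1976).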

How the results depend on the processing

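The count of MyS7KO genes called stayed within 1.5 times of 6343 under every alternative run, from 4605 to 6846, and 70.7 to 99.4% of the genes called at first were called again, none of them turned. Leaving out single libraries gave 5245 to 6227 calls, 1366 to 1848 with at least 2-fold change, and 0 differences between genotypes. The 2-fold count was 442 on log2(FPKM + 1) and 440 on the same without a filter. Those settings add a pseudocount that shrinks the change of low genes. The difference between genotypes passed for 1 gene with DESeq2 and for 0 elsewhere. The S7fl/fl count of 3478 ranged from 2130 to 3204 without single libraries, the lowest without day 7 replicate 2.

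With the replicate block 4605 genes were called, 2189 higher and 2416 lower, 1206 of them 2-fold, and 0 differed between genotypes. The replicate numbers did not pair the samples: same-numbered deviations correlated at 0.177, -0.197, -0.152 and 0.0798, and 1 of 4 day 7 libraries matched its own number best. Among named genes the block ended 11 calls (edgeR adjusted p 0.0550 for Lyz2, 0.0610 for Smad4, 0.069 for Irf1, 0.0750 for Smad6, 0.0881 for Ctsb, 0.126 for Gpnmb, 0.136 for Smad7, 0.138 for Cxcl9, 0.411 for Gbp2, 0.453 for Iigp1 and 0.764 for Nos2) and added that of Trem2 (0.0395). Of the interferon list 2 then rose and 4 fell.

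Signs turned for genes that were not called: Myh11 (0.20) was -0.28 with the block, -0.22 on log2(FPKM + 1) with and without a filter, -0.53 on log2(FPKM + 0.1), and -0.59 to 0.59 without single libraries. Tgfb1 (-0.02) was 0.0647 with the block, 0.0488 without the libraries of mixed sex, and -0.0949 to 0.0641 without single libraries. Smad3 ranged from -0.0137 to 0.285 without single libraries. The called Nos2 ranged from -0.22, without day 7 replicate 4, to 2.46. The cause was not tested. Groups of 5 and 4 libraries and the overlap of sex with time limit all of these results.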

Other observations

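Most genes of protein folding, the proteasome and the mitochondrial ribosome were lower at day 7 in MyS7KO macrophages. The lists were written after the leading genes had been seen, so their direction is no independent evidence. Of 35 tested genes of endoplasmic reticulum folding and translocation 31 fell and 1, the stress sensor Atf6, rose, with a median log2 change of -0.81. Pdia6, a disulfide isomerase, stood at 776, 681, 935, 904 and 834 CPM at day 3 and at 200, 253, 218 and 240 CPM at day 7, against 190 to 199 CPM at baseline (-1.86 ± 0.1496, edgeR adjusted p = 9.22e-09). The chaperone Calr fell by 1.32. Hspa5, the main chaperone of that compartment, fell by 0.83, with day 7 replicate 3 at 3039 CPM, inside the day 3 range of 2979 to 4198 CPM. The count that rose was 0 without day 7 replicate 3, with only the Xist libraries and without those of mixed sex.

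All 8 subunits of the cytosolic chaperonin CCT fell, with a median log2 change of -0.82. Cct6a stood at 187, 175, 195, 196 and 197 CPM at day 3 and at 72.1, 84.4, 88.5 and 98.6 CPM at day 7. Of 37 tested proteasome subunits 34 fell, and the 3 that did not pass were Psmb8, Psmb9 and Psma8, the first 2 being subunits of the interferon-induced immunoproteasome. The catalytic subunit Psmb5 fell from 86.6, 100, 114, 99.3 and 110 CPM to 33.3, 43.7, 47.3 and 53.3 CPM (-1.197 ± 0.137, edgeR adjusted p = 6.39e-07). Of 77 tested mitochondrial ribosomal proteins 68 fell (median -0.62). Of 75 cytosolic ribosomal proteins 20 fell (26.7%, against 19.1% of all genes tested) and 55 were not called (median -0.26). That count of lower genes was 10 without day 7 replicate 1 or without the libraries of mixed sex and 31 without day 7 replicate 5. In S7fl/fl 27, 8, 29, 22 and 1 members fell in the order folding, CCT, proteasome, mitochondrial and cytosolic ribosome, and no member passed the edgeR test of the difference.

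Markers of B, T and NK cells were low in the sorted cells. Ighm, the heavy chain of IgM in B cells, stood at 20.5, 46.5, 22.5, 25.3 and 29.3 CPM at day 3, at 82.1, 102, 87.5 and 88.3 CPM at day 7 and at 125 to 192 CPM at baseline (1.64 ± 0.220, edgeR adjusted p = 7.99e-06). Of 6 tested T cell markers 4 rose, with sums of 9.24 to 15.9 CPM at day 3 and 32.5 to 34.7 CPM at day 7, a count of 2 with only the Xist libraries. Much of that sum was Cd4, the co-receptor of helper T cells, with a mean of 5.21 CPM at day 3 and 17.8 CPM at day 7. The T cell receptor gene Trac did not pass (0.26 ± 0.457, edgeR adjusted p = 0.681), and the other 6 of the 12 members were not tested because of low counts. Cd4 and Trac were named after their values were seen. NK cell marker sums overlapped, at 17.1 to 28.0 CPM at day 3 and 23.6 to 36.6 CPM at day 7. Of 10 such markers 3 rose (30%, against 20.5% of all genes tested). That count was 0 with limma-voom, with only the Xist libraries, on log2(FPKM + 1) without a filter, and without day 3 replicate 3 or 4 or day 7 replicate 1, and 1 with sex as a covariate, with mixed-sex libraries dropped, on log2(FPKM + 1) and without day 3 replicate 1. Neutrophil markers had 3 of 12 higher (25%, against 20.5% of all genes tested) and 1 lower, with sums of 128 to 217 CPM and 174 to 339 CPM. Cardiomyocyte markers had 3 of 15 higher (20%, against 20.5% of all genes tested) and 1 lower, with a median log2 change of 0.48. They summed to 425 to 631 CPM at day 3 and 304 to 373 CPM at day 7. Most of that sum was 1 gene, Atp2a2, at 388 to 596 CPM at day 3 and 253 to 277 CPM at day 7. The next highest member, Mybpc3, stood at 10.2 to 17.7 CPM and 10.4 to 27.0 CPM. The lower sum thus follows Atp2a2 and does not describe the other members. The count that rose was 0 without day 7 replicate 4 and 1 without day 3 replicate 2, 4 or 5.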
